A study of Mus musculus with 5 samples.

Results

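The naive pluripotency transcription factors are the DNA-binding proteins and co-regulators that mark and hold the ground state of mouse embryonic stem cells. They were followed here as 10 genes of the 24421 in each deposited table. The genes were Klf2, Klf4, Klf5, Esrrb, Nr5a2, Nr0b1, Tfcp2l1, Tbx3, Prdm14, and Zfp42, taken by symbol from both tables. RNA-seq was performed on 5 mouse libraries, 1 per group. MEFs were fibroblasts from CF-1 mouse embryos, grown in serum. iPSCs were a feeder-independent line obtained from a cell repository, and the mouse embryonic stem cells (mESCs) were the V6.5 line. The labels give growth on gelatin with serum replacement, a little serum, and LIF, the cytokine that sustains self-renewal. The study's methods also describe culture on feeder cells with serum and do not say which one the sequenced cells came from. NTC cells were V6.5 cells stably carrying a nontargeting control shRNA in the lentiviral vector pLKO, and shGldc cells were V6.5 cells with an shRNA against Gldc, the glycine decarboxylase of the glycine cleavage system. The deposited column is named sh3, a name that the study's list of mouse Gldc shRNAs does not hold, so which hairpin was sequenced is not known. Expression is given in FPKM, a fragment count scaled to transcript length and library size. One deposited table holds the MEF, iPSC, and untreated V6.5 libraries, and the other holds NTC and shGldc. With 1 library per group, no replicate error exists, no test was run, and no p-value is given. Every difference below is therefore a difference between libraries.

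Naive pluripotency is the state of the preimplantation epiblast, and mESCs keep it in culture while LIF is present. LIF acts through the receptor pair Lifr and Il6st and the kinase Jak1 on Stat3, which in turn switches on Klf4, Tfcp2l1, and Socs3. FGF4 signalling through ERK pushes the cells towards the formative and primed states, in which most of these factors are lost. The core factors Pou5f1, Sox2, Nanog, and Sall4 are shared by the naive and the primed states.

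Depth was estimated from the steps between low FPKM values and came to between 22100000 fragments (iPSCs) and 29100000 fragments (NTC). For the NTC and shGldc libraries, 20 of 549 and 29 of 528 low values lay at 1 to 3 steps, and this estimate may be off by a factor of 2. That margin was not computed. Each label was checked against marker genes. The 9 fibroblast markers summed to an FPKM of 7064 in MEFs, 51.8 in untreated V6.5 cells, 22.8 in iPSCs, 10.5 in NTC cells, and 5.51 in shGldc cells. In untreated V6.5 cells, Col1a1 stood at 20.5 and Dcn at 1.93, whereas Dcn was listed at 0 in the other 3 pluripotent libraries. The MEF library also held macrophage transcripts, with all 8 markers at an FPKM of at least 1 and Lyz2 the highest at 142. Of 5 endothelial markers, 2 reached an FPKM of 1 there, with Emcn the highest at 9.96. The 5 pluripotency markers used for the check summed to 2.98 in MEFs and to between 3373 and 6401 in the pluripotent libraries. In bulk RNA, fewer cells of a type and less RNA per cell cannot be told apart.

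Promoter sequence was at hand for 7 of the 10 genes, as 9 RefSeq entries on GRCm38.p6, of which the 250 bases before each start were searched on both strands. Klf5, Tbx3, and Prdm14 had no entry. The 3 promoters printed here belong to Nr0b1, the factor with the largest difference after Gldc knockdown, to Klf2, the factor with the smallest, and to Klf4, the factor whose level in MEFs came nearest to that in V6.5 cells. They are shown on the strand of the gene and stop before the annotated transcript, at chrX:86191525-86191763 (plus strand, 239 bases), chr8:72318812-72319032 (plus strand, 221 bases), and chr4:55532476-55532725 (minus strand, 250 bases). Capitals mark AGGTCA, the half-site of nuclear receptors, in Nr0b1, and GGGGCGGGG, a GC box of the kind bound by Sp and Klf proteins, or its complement in Klf2 and Klf4.
Nr0b1: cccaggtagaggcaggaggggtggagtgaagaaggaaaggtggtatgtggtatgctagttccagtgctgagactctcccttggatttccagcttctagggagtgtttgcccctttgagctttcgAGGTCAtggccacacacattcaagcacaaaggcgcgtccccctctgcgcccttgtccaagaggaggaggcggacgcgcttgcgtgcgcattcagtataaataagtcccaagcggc
Klf2: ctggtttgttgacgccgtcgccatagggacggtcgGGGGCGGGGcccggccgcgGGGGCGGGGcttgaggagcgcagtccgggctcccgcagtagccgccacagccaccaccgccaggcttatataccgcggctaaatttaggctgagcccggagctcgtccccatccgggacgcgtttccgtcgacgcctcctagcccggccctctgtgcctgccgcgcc
Klf4: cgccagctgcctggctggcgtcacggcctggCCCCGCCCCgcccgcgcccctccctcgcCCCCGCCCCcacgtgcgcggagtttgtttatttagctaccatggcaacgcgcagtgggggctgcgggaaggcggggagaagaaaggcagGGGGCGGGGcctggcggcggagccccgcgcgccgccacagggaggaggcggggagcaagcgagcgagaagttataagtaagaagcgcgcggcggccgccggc
The GC box GGGGCGGGG occurred 2 times in Klf2 and 3 times in Klf4, in none of the other 5 genes, and in 10.4% of 32851 mouse promoters. These were also the most GC-rich entries of the set, at 71.2% and 74.0%. AGGTCA occurred 1 time in Nr0b1 and at 1 of the 2 starts of Nr5a2, against 14.02% of promoters. The longer AAGGTCA, the preferred site of Esrrb and Nr5a2, which contains AGGTCA, had no match in the 7 genes and was found in 4.08% of promoters. GGGNGTGG, a Klf-type site, matched in Tfcp2l1 (2 times), Zfp42, and Nr5a2, against 15.9% of promoters. TTCNNNGAA, the STAT site, matched in Esrrb alone, against 7.02%. These are matches of letters in a short window and say nothing of binding.

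The 3 Klf genes encode Krüppel-like zinc finger activators that can stand in for one another in mESCs. Klf2 (chr8:72319033-72321656, plus strand) had an FPKM of 16.1 in MEFs, 128 in iPSCs, 187 in untreated V6.5 cells, 387 in NTC cells, and 398 in shGldc cells. Klf4 (chr4:55527143-55532466, minus strand), a reprogramming factor and target of Stat3, had 22.2 in MEFs, 105 in iPSCs, 42.2 in untreated V6.5 cells, 54.5 in NTC cells, and 36.6 in shGldc cells. Klf5 (chr14:99298691-99315036, plus strand) had 5.66, 146, 35.8, 96.0, and 60.6 in the same order. All 3 were thus present in the MEF library, and Klf4 was the highest of the 10 factors there. Which cells of that culture held them was not tested. Klf2 was the highest of the 10 in untreated V6.5, NTC, and shGldc cells, but not in iPSCs, where Esrrb was the highest and Klf5 exceeded Klf2.

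**Figure D1:**
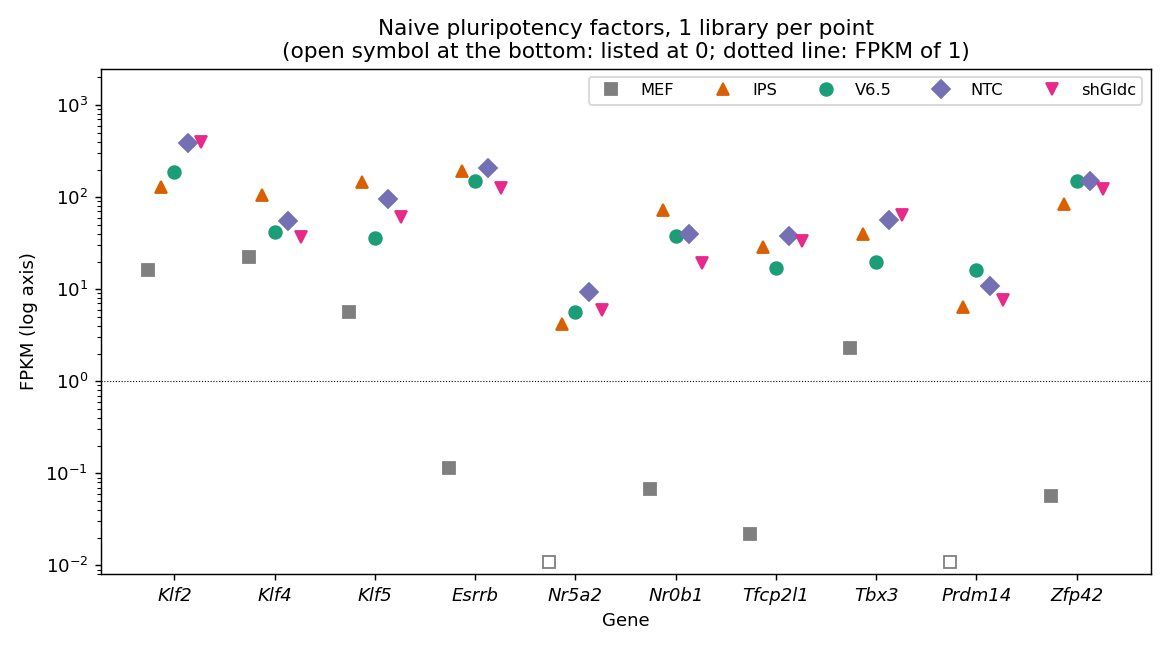
FPKM of the 10 naive factors (log axis) in the 5 libraries, 1 symbol per library, with open symbols for values listed at 0 and a dotted line at an FPKM of 1. In MEFs, 6 factors lie below an FPKM of 1 and 4 above it, and in the other 4 libraries every factor lies above 4.

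Esrrb and Nr5a2 are orphan nuclear receptors, and Nr0b1 (also called Dax1) is an atypical member of that family without the usual DNA-binding domain. Esrrb (chr12:86361117-86521628, plus strand) had an FPKM of 0.114 in MEFs, 190.5 in iPSCs, 149 in untreated V6.5 cells, 208 in NTC cells, and 127 in shGldc cells. Nr5a2 (chr1:136842571-136960448, minus strand), an activator of Pou5f1, was listed at 0 in MEFs and had 4.18 in iPSCs, 5.65 in untreated V6.5 cells, 9.40 in NTC cells, and 5.98 in shGldc cells. Nr0b1 (chrX:86191764-86195947, plus strand) had 0.0678, 71.7, 37.7, 40.2, and 19.3 in the same order. The 3 receptors were near or at 0 in the MEF library and reached very different levels in the pluripotent libraries. Nr5a2 was the lowest of the 10 factors in all 4 of these.

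Tfcp2l1 is a CP2-family factor and a target of Stat3, and Tbx3 is a T-box factor. Tfcp2l1 (chr1:118627945-118685168, plus strand) had an FPKM of 0.0218 in MEFs, 28.4 in iPSCs, 16.9 in untreated V6.5 cells, 37.5 in NTC cells, and 33.1 in shGldc cells. Tbx3 (chr5:119670669-119684724, plus strand) had 2.32 in MEFs, 39.4 in iPSCs, 19.9 in untreated V6.5 cells, 56.1 in NTC cells, and 64.0 in shGldc cells. Both had their lowest pluripotent value in untreated V6.5 cells. An exon of Tfcp2l1 overlaps Gm23497 on the same strand, and Tbx3 overlaps Tbx3os1 on the other strand, so part of their signal is uncertain.

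Prdm14 represses FGF receptor genes and the de novo DNA methyltransferases, and Zfp42 (Rex1) is a zinc finger protein related to Yy1 that is widely used as a naive marker. Prdm14 (chr1:13113457-13127163, minus strand) was listed at 0 in MEFs and had an FPKM of 6.48 in iPSCs, 16.1 in untreated V6.5 cells, 10.9 in NTC cells, and 7.65 in shGldc cells. Zfp42 (chr8:43295063-43306980, minus strand) had 0.0565 in MEFs, 83.7 in iPSCs, 149 in untreated V6.5 cells, 150.3 in NTC cells, and 123 in shGldc cells. These were the only factors of the 10 that were higher in untreated V6.5 cells than in iPSCs by more than 1.5-fold. Of the 50-base stretches of Zfp42, 8.52% also occur in its pseudogene Zfp42-ps1, and the share was at most 0.93% for the other 9 genes.

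The comparison with MEFs asks which factors separate pluripotent cells from somatic cells. Ratios were taken as log2(FPKM + 0.1), which understates the change of genes near 0, and a gene was kept if either library reached an FPKM of 1. All 10 factors passed in each comparison, and over MEFs 6 of them passed through the pluripotent library alone. In untreated V6.5 cells over MEFs, all 10 were higher, with a median log2 ratio of 6.48, and 9 were at least 2-fold higher. Over all genes, 56.4% were higher, the share at least 2-fold higher was 30.3%, that at least 2-fold lower was 23.3%, and the median was 0.25. In iPSCs over MEFs, all 10 were at least 2-fold higher, with a median of 5.73, against 31.5% of all genes, while 21.3% were at least 2-fold lower and the median of all genes was 0.31. With the MEF values set to no less than 3 fragments and no pseudocount, the medians of the 10 factors were 8.09 and 7.22.

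The factors fell into those well above 0 in the MEF library and those near or at 0 there. Klf2, Klf4, Klf5, and Tbx3 had an FPKM of at least 1 in MEFs, and their levels in untreated V6.5 cells were 11.6-fold, 1.90-fold, 6.32-fold, and 8.59-fold higher. In iPSCs, the same genes were 7.99-fold, 4.73-fold, 25.9-fold, and 17.0-fold higher than in MEFs. Klf4 was therefore the single factor under 2-fold in untreated V6.5 cells, at 1.90-fold. Its 95% interval, taken from the Poisson limits of the MEF count alone, was 1.81 to 2.00. The intervals given here leave out the counting error of the V6.5 value and are thus too narrow. Whether Klf4 truly lies under 2-fold is not settled by them. In NTC cells, across tables, Klf4 was 2.46-fold higher than in MEFs, Klf2 24.1-fold, Klf5 17.0-fold, and Tbx3 24.2-fold. The other 6 were below 1 in MEFs. About 12.1 fragments stood behind Esrrb in MEFs, 4.97 behind Tfcp2l1, 3.02 behind Nr0b1, and 2.56 behind Zfp42. These estimates assume the length of the longest coding transcript of each gene, and the length the authors used is not known. The intervals rest on counts rounded to whole fragments. The level of Esrrb in untreated V6.5 cells was 1306-fold higher than in MEFs (interval 751 to 2540), and that of Tfcp2l1 775-fold higher (interval 330.3 to 2374). Nr0b1 was 556-fold higher (interval 192 to 2716) and Zfp42 2646-fold higher (interval 771 to 10933), so that the order of these 4 genes is within counting error. For Prdm14 and Nr5a2, listed at 0, no fold is given. A count of 0 allows up to 3 fragments, an FPKM of 0.0475 for Prdm14 and 0.0257 for Nr5a2.

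Within the Klf family, the 3 factors made up a larger part in pluripotent cells. Their summed FPKM was 43.9 in MEFs, 379.6 in iPSCs, 265 in untreated V6.5 cells, 537 in NTC cells, and 495 in shGldc cells. This was 28.6% of the FPKM of all 17 Klf genes in MEFs, 58.4% in iPSCs, 63.0% in untreated V6.5 cells, 79.9% in NTC cells, and 80.9% in shGldc cells. In MEFs, Klf6, at 38.4, exceeded each of the 3, and Klf6 was at 9.58 in iPSCs and between 2.61 and 5.07 in the V6.5-derived libraries. Klf2 took 36.6% of the sum of the 3 in MEFs, 33.8% in iPSCs, 70.5% in untreated V6.5 cells, 72.0% in NTC cells, and 80.4% in shGldc cells. In iPSCs, the 3 genes were thus about equal, and in all V6.5-derived libraries Klf2 dominated. Klf3, Klf9, and Klf16 were the other family members with high values, at 84.5, 83.2, and 26.7 in iPSCs and 44.4, 29.4, and 29.2 in untreated V6.5 cells.

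**Figure D2:**
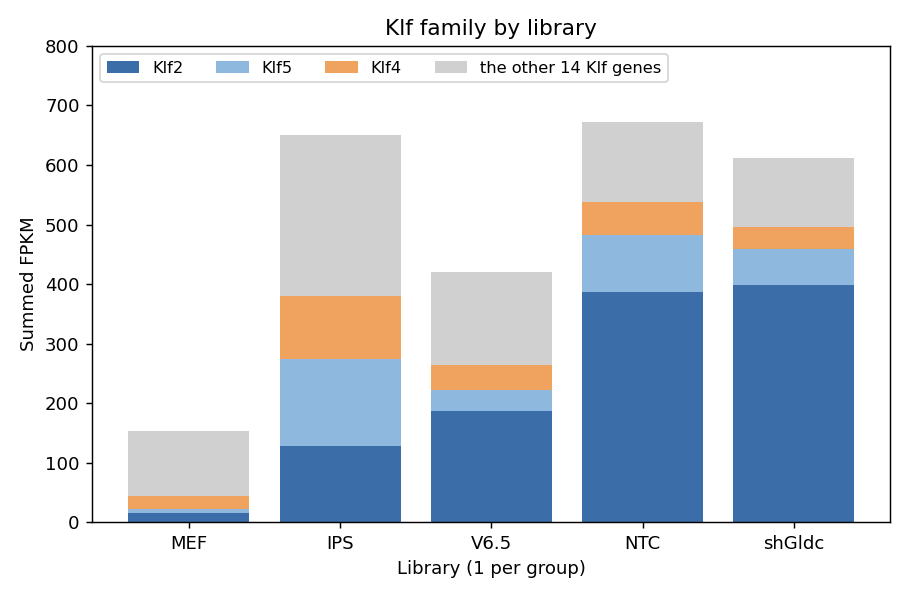
Summed FPKM of the Klf family by library, with Klf2, Klf5, Klf4, and the other 14 Klf genes stacked. Klf2 makes up 70.5% to 80.4% of the 3 named genes in the libraries from V6.5 cells and 33.8% in iPSCs.

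Of the other relatives, Esrra was similar in all libraries, between 21.1 and 31.0. Yy1, the relative of Zfp42, lay between 22.4 and 38.0. Ubp1, a relative of Tfcp2l1, lay between 10.2 in MEFs and 24.9 in shGldc cells. Tbx15 was at 18.7 in MEFs and at most 0.74 elsewhere, the opposite direction to Tbx3. Prdm4 lay between 9.01 and 11.6 in all 5 libraries. Klf10 reached 25.7 and Klf11 17.6 in iPSCs, whereas Klf13 was highest in MEFs, at 16.1.

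The comparison of iPSCs with untreated V6.5 cells asks how alike reprogrammed and embryonic cells are in these factors. Klf5 (4.09-fold) and Klf4 (2.48-fold) were higher in iPSCs, and Prdm14 was lower by 2.48-fold. Tbx3 (1.98-fold), Nr0b1 (1.90-fold), Tfcp2l1 (1.68-fold), and Esrrb (1.28-fold) were also on the side of iPSCs. Zfp42 (1.79-fold), Klf2 (1.45-fold), and Nr5a2 (1.35-fold) were on the side of V6.5 cells. Of the 10 factors, 6 were therefore higher and 4 lower in iPSCs, with a median log2 ratio of 0.55, against 0.04 for all genes. Of all genes, 52.6% were higher and 47.4% lower. At least 2-fold higher were 2 factors, against 10.1% of all genes, and at least 2-fold lower was 1, against 7.44%. The core factors differed less, from -0.47 for Nanog to 0.35 for Sox2 on the log2 scale, and none of the 4 reached 2-fold. Of 10 formative and primed genes that passed, 5 were higher and 5 lower in iPSCs. Past 2-fold were Grhl2 (0.861 in untreated V6.5 cells and 3.38 in iPSCs), higher, and Dnmt3a (23.2 and 5.40), Zic2 (14.7 and 4.24), Sall2 (4.05 and 1.15), Lef1 (1.16 and 0.151), and Otx2, lower, where Grhl2, Lef1, and Otx2 passed the filter through 1 library only. Otx2 was at 11.5 in untreated V6.5 cells, 0.304 in iPSCs, 0.592 in NTC cells, and 0.549 in shGldc cells, so the untreated V6.5 library stood apart in this gene. When the NTC library stood in for untreated V6.5 cells, across tables, the median of the 10 became -0.45, and Esrrb, Tfcp2l1, and Tbx3 changed direction. None of the 3 differences past 2-fold stayed past it there, with log2 ratios of 0.94 for Klf4, 0.61 for Klf5, and -0.75 for Prdm14. Klf2 (-1.59) and Nr5a2 (-1.15) were instead at least 2-fold lower in iPSCs. Markers of other cells differed too. The 9 fibroblast markers summed to 51.8 in untreated V6.5 cells and 22.8 in iPSCs, with Col1a1 at 20.5 and 1.68, Twist1 at 2.77 and 11.8, and Thy1 at 5.63 and 8.30. The 8 primitive endoderm markers summed to 10.8 and 32.6, Cdx2 was at 0.274 and 3.34, Hand1 at 3.01 and 13.6, and the endothelial gene Tek at 0.639 and 5.52, where Cdx2 and Tek passed the filter only through iPSCs. The other trophoblast markers that passed, Tfap2c (63.0 and 62.4) and Eomes (5.48 and 4.09), were level or lower in iPSCs. The part of all these in the differences of the factors was not tested.

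The spread among the 4 pluripotent libraries was wide for these genes. The ratio of the highest to the lowest FPKM over iPSCs, untreated V6.5, NTC, and shGldc cells was 4.09 for Klf5, 3.71 for Nr0b1, 3.22 for Tbx3, 3.10 for Klf2, and 2.86 for Klf4. It was 2.48 for Prdm14, 2.25 for Nr5a2, 2.22 for Tfcp2l1, 1.80 for Zfp42, and 1.64 for Esrrb. Among the 6618 genes that reached an FPKM of 5 in all 4, the median ratio was 1.64 and 26.4% reached 2. Of the 9 factors in that set, 7 (77.8%) reached 2, and their median was 2.86. The 4 core factors had a median of 1.60, and none reached 2. A spread of this size was not particular to the factors, since 10 of the 11 other naive genes in the set also reached 2, with a median of 2.88 and ratios of up to 6.09 (Tcl1). These ratios mix the reprogramming, the shRNA, and the 2 tables, which cannot be told apart. The library with the highest value also differed by factor: iPSCs for Klf4, Klf5, and Nr0b1, NTC cells for Esrrb, Tfcp2l1, Zfp42, and Nr5a2, shGldc cells for Klf2 and Tbx3, and untreated V6.5 cells for Prdm14.

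**Figure D3:**
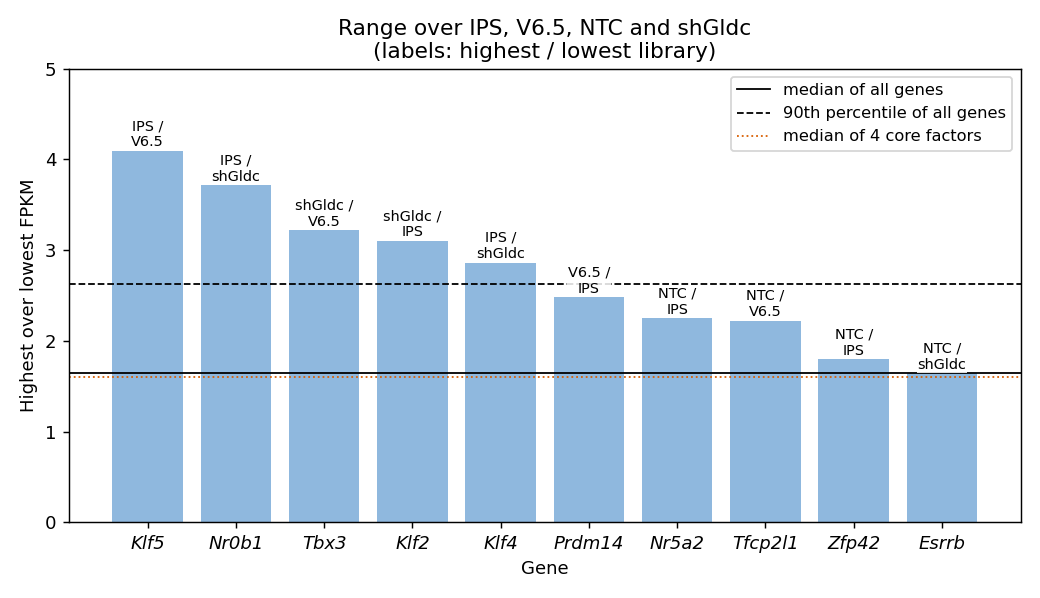
Highest over lowest FPKM of each factor across iPSCs and untreated V6.5, NTC, and shGldc cells, with the highest and lowest library above each bar and lines at the median (1.64) and 90th percentile (2.63) of all genes that reached an FPKM of 5 in all 4 and at the median of the 4 core factors (1.60). Klf5, Nr0b1, Tbx3, Klf2, and Klf4 exceed the upper line, and Nr5a2, at 4.18 in iPSCs, is drawn although it did not pass that filter.

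The control shRNA itself came with differences from untreated cells. Over untreated V6.5 cells, in the other table, NTC cells had 2.82-fold more Tbx3, 2.68-fold more Klf5, 2.22-fold more Tfcp2l1, and 2.07-fold more Klf2. Nr5a2 (1.66-fold), Esrrb (1.40-fold), and Klf4 (1.29-fold) were higher by less, and Nr0b1 (1.06-fold) and Zfp42 (1.01-fold) were level. Prdm14 was lower by 1.47-fold. Hence 9 of the 10 factors were higher in NTC cells, against 45.6% of all genes. Of the factors, 4 were at least 2-fold higher, against 4.99% of all genes, and none at least 2-fold lower, against 10.3%. The median of the 10 was 0.60 and that of all genes -0.06. This ratio also includes any difference between the tables, and the sum of the 9 fibroblast markers was 51.8 in untreated V6.5 and 10.5 in NTC cells. Genes of other states and lineages also differed. The 12 other naive genes had a median of -0.41, opposite in sign to the 10 factors, with Gbx2 (15.4 in untreated V6.5 and 50.6 in NTC cells) at least 2-fold higher and Dppa3 (60.6 and 11.7), Dppa5a (4146 and 1440.4), and Fbxo15 (110.1 and 41.2) at least 2-fold lower. Among formative and primed genes, T (0.425 and 4.33) and Dnmt3b (24.5 and 65.0) were higher, and Otx2 (11.5 and 0.592) and Cldn6 (60.9 and 20.0) lower. Of the trophoblast markers, Cdx2 was at 0.274 and 5.41 and Hand1 at 3.01 and 0.382. T and Cdx2 passed the filter only through NTC cells, and Otx2 and Hand1 only through untreated V6.5 cells, so the filter set their direction. The part of all these in the result was not tested.

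The comparison of shGldc with NTC cells asks how the naive factors stand when Gldc is suppressed. Gldc itself was at 74.7 in NTC cells and 2.07 in shGldc cells, 36.0-fold lower. Among the factors, Nr0b1 was 2.08-fold lower, Esrrb 1.64-fold, Klf5 1.58-fold, Nr5a2 1.57-fold, Klf4 1.49-fold, and Prdm14 1.43-fold lower. Zfp42 was 1.22-fold and Tfcp2l1 1.14-fold lower. Tbx3 was 1.14-fold higher, and Klf2 was 1.03-fold higher. In all, 8 of the 10 factors were lower, against 47.2% of all genes, and 2 were higher, against 52.8%. The median log2 ratio of the factors was -0.54, against 0.04 for all genes. Only Nr0b1 reached 2-fold, 1 factor of 10, against 7.68% of all genes. At least 2-fold higher were 0 factors, against 8.97%. The count past 2-fold was thus near the background, and the directions rest on a single pair of libraries.

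**Figure D4:**
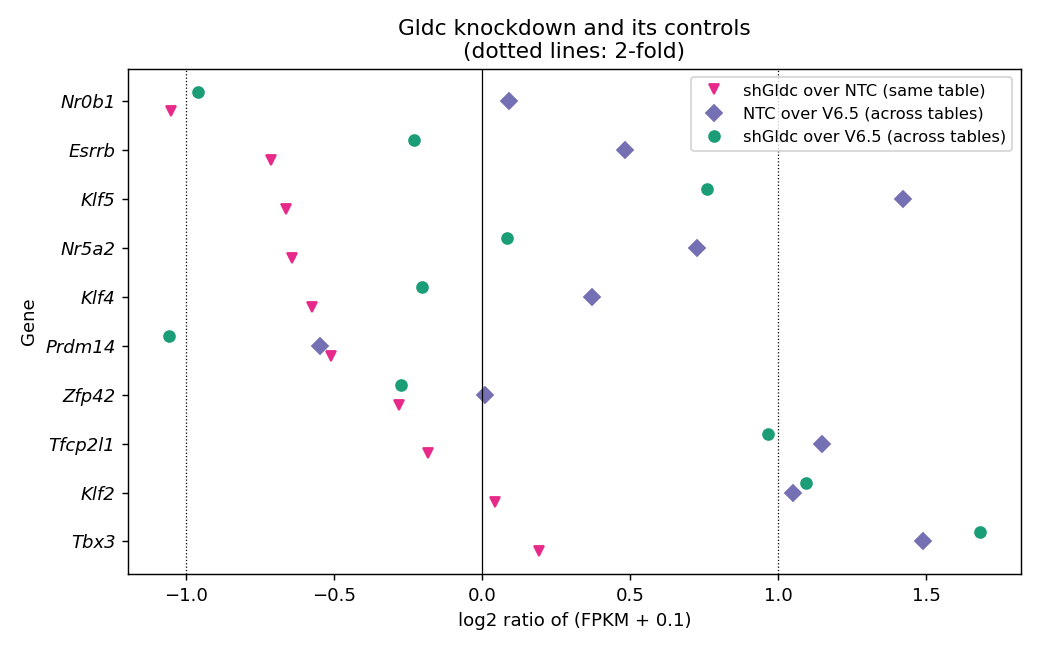
Log2 ratios of (FPKM + 0.1) for the 10 factors in shGldc over NTC, NTC over untreated V6.5, and shGldc over untreated V6.5 cells, with dotted lines at 2-fold and genes ordered by the first. For shGldc over NTC, the symbols run from -1.05 (Nr0b1) to 0.19 (Tbx3), and for Klf5, Tfcp2l1, and Nr5a2 the 2 ratios of shGldc cells lie on opposite sides of 0.

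Because the control differed from the parent line, shGldc cells were also set beside untreated V6.5 cells, across tables. Klf4, Esrrb, Prdm14, Nr0b1, and Zfp42 were lower in shGldc cells than in either control. Klf5, Tfcp2l1, and Nr5a2 were lower than in NTC cells but higher than in untreated V6.5 cells, and Klf2 and Tbx3 were higher than in both. Against untreated V6.5 cells, Prdm14 was 2.1-fold lower and Nr0b1 1.95-fold lower. Zfp42 was lower by 1.21-fold, Esrrb by 1.17-fold, and Klf4 by 1.15-fold. On the other side, Tbx3 was 3.22-fold, Klf2 2.13-fold, Tfcp2l1 1.96-fold, Klf5 1.69-fold, and Nr5a2 1.06-fold higher. The 10 factors were split into 5 higher and 5 lower, with a median of -0.06, against -0.02 for all genes. Of all genes, 48.8% were higher and 51.2% lower. At least 2-fold higher were 2, against 9.89% of all genes, and at least 2-fold lower was 1, against 13.9%. The comparisons share the shGldc library, so they are not independent of each other. In untreated V6.5 and shGldc cells, the fibroblast marker sum was 51.8 and 5.51, and the primitive endoderm sum 10.8 and 34.7. Cdx2 was at 0.274 and 33.3, and Hand1 at 3.01 and 0.979. Each of these 2 genes passed the filter only through the library where it was high. The part of these markers in the result was not tested.

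Genes that surround the factors in the network are given for shGldc over NTC cells by lists written by hand. All 4 core factors were lower, against 47.2% of all genes, while 52.8% of all genes were higher. The core factors ran from 1.06-fold lower for Sall4 to 1.71-fold lower for Sox2, with a median log2 ratio of -0.29, and none reached 2-fold. Of 12 other naive genes, 7 were higher and 5 lower, with a median of 0.26. Tcl1, a coactivator of Akt, was at 38.3 in NTC and 8.76 in shGldc cells and Gbx2, a homeobox gene downstream of Stat3, at 50.6 and 25.1, while Dppa3 (Stella), at 11.7 and 20.3, had the highest ratio of the list. Of 9 formative and primed genes that passed the filter, 6 were higher and 3 lower, with a median of 0.25. Of these, 3 were at least 2-fold higher, against 8.97% of all genes, and 1 lower, against 7.68%. The higher ones were Lef1 (1.11 and 5.01), the tight junction gene Cldn6 (20.0 and 44.4), and Sox3 (13.4 and 27.8), and the lower one was Pou3f1 (7.02 and 1.01). Otx2 stayed below 1 in both libraries, and Fgf5 was listed at 0 in both.

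The LIF pathway lies upstream of Klf4 and Tfcp2l1. Of its 9 genes, 4 were higher and 5 lower, with a median of -0.04, and 6 of the 9 passed the filter in both libraries. Of all genes, 52.8% were higher and 47.2% lower. Lif itself was at 0.68 in NTC and 5.24 in shGldc cells, whereas its receptor Lifr was at 2.41 and 0.72. Il6st (9.44 and 9.21), Jak1 (8.97 and 9.36), and Stat3 (32.3 and 34.0) were level. Socs3, a feedback inhibitor and Stat3 target, was lower, at 98.8 and 45.9. Of the 16 genes of the FGF and ERK pathway and of exit from the naive state, 6 were higher and 10 lower, with a median of -0.23. Fgf4, the ligand, was at 59.9 and 18.0, Spry4 at 45.4 and 12.6, and Etv4 at 109 and 53.9. These 3 were at least 2-fold lower, against 7.68% of all genes. The receptor gene Fgfr2 was at 0.28 and 1.45, and Flcn, which promotes exit, at 10.5 and 22.4. Both were at least 2-fold higher, against 8.97% of all genes. Among 22 relatives of the factors that passed, 10 were higher and 12 lower. At least 2-fold higher was 1, Tbx2 (0.108 and 1.005), against 8.97% of all genes. At least 2-fold lower were 2, Klf17 (2.71 and 0.741) and Klf1 (2.54 and 1.07), against 7.68%. Lif, Jak2 (0.935 and 1.81), Fgfr2, and Tbx2 passed the filter only through shGldc cells, and Lifr and Klf17 only through NTC cells, so for these genes the filter set the direction.

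**Figure D5:**
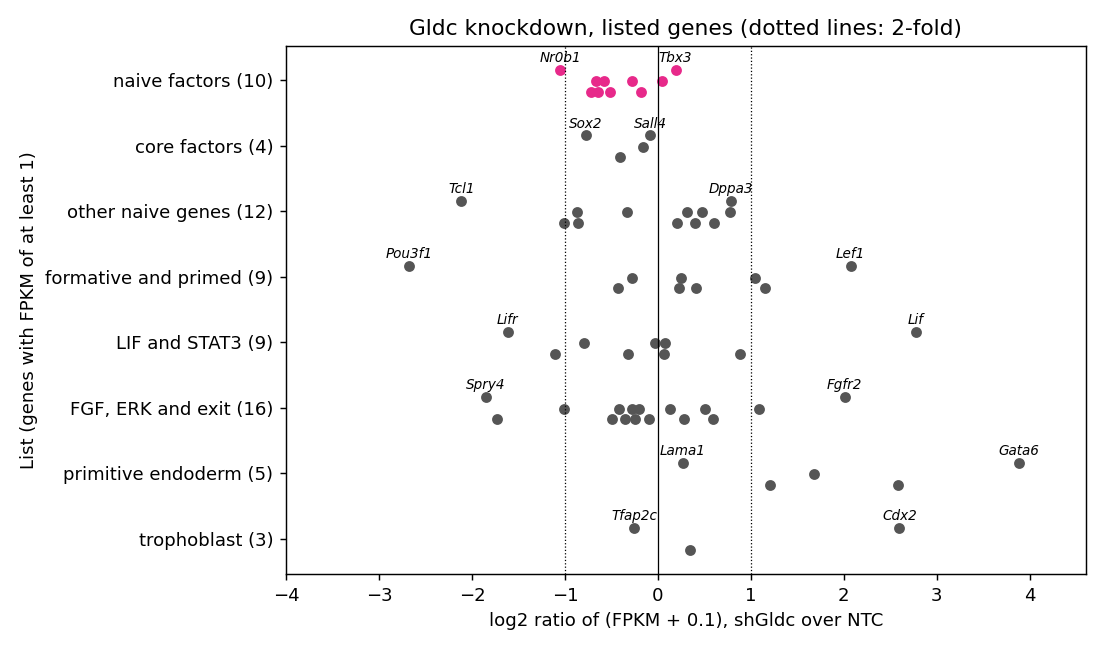
Log2 ratios of (FPKM + 0.1) in shGldc over NTC cells for the 10 naive factors and the genes of 7 other lists that passed the filter, 1 point per gene, with the highest and lowest gene of each list named. The naive factors run from -1.05 to 0.19, and the LIF list from -1.62 to 2.77.

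Markers of other lineages also differed between NTC and shGldc cells. Gata4, a primitive endoderm factor, was at 2.38 in NTC and 7.84 in shGldc cells, Gata6 at 0.462 and 8.22, Pdgfra at 0.143 and 1.36, and Dab2 at 0.928 and 2.26. The last 3 of these passed the filter only through shGldc cells, where they were high, so no count is given for the list. Lama1, the most abundant of the 8 markers, was at 10.9 and 13.1, and the sum of all 8 was 15.1 and 34.7. Sox17, Sox7, and Foxa2 stayed below 1 in both libraries. Cdx2, a trophectoderm and caudal factor, was at 5.41 and 33.3, while the other trophoblast markers that passed, Eomes (7.97 and 10.1) and Tfap2c (45.8 and 38.4), were close. The part of such cells in the lower levels of 8 factors was not tested. The fibroblast marker sum was 10.5 in NTC and 5.51 in shGldc cells, with Thy1 at 6.95 and 1.11 and Twist1 at 2.105 and 3.66, and 5 of its 9 genes were listed at 0 in both. Of the endothelial genes, Tie1 alone passed the filter, through shGldc cells only, at 0.188 and 3.09.

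The genes whose pattern was most like the median of the 10 factors were sought among 5794 genes that reached an FPKM of 10 in untreated V6.5 cells. Likeness was the Euclidean distance over 4 log2 differences, those of MEFs, iPSCs, NTC, and shGldc cells from untreated V6.5 cells. The nearest was Cbx7, a Polycomb subunit, at a distance of 0.44, with an FPKM of 0.572 in MEFs, 66.8 in iPSCs, 44.9 in untreated V6.5 cells, 62.2 in NTC cells, and 42.6 in shGldc cells. B4galnt3 (0.55), Zfp296 (0.58), Cblc (0.69), and Bex1 (0.70) followed. Of the 10 factors themselves, Nr5a2 (1.18) and Tfcp2l1 (1.34) lay closest to their own median and Klf4 (5.62) farthest from it.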

How the data were processed

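RNA was sequenced from 5 mouse samples, 1 library per group. The authors mapped the reads to mm10 with TopHat2 2.1.0, assembled transcripts with StringTie 1.3.4d, and computed expression with Ballgown, and the labels also list SAMtools 1.7. They deposited FPKM values of 24421 genes in 2 tables made separately. Annotation, strand setting, and filters are not given in the sources used here, and the labels list mm9 beside mm10.

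The 10 factors, the 12 gene lists, and the comparisons were chosen with earlier results of these data known. Log2 ratios used a pseudocount of 0.1 and genes for which either library reached an FPKM of 1. With no replicates, a gene was counted when it differed at least 2-fold. The ratio code was checked on simulated data. Depth came from the step between low FPKM values times length, over 5723 genes with a single GENCODE transcript. Intervals (95%, Poisson) and floors (3 fragments) cover the counting error of the MEF value only, and PCR copies are not independent molecules.

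Named were all 10 factors, Gldc, and, in each list and comparison described gene by gene, the highest and lowest gene and those past 2-fold, relatives with an FPKM of at least 10 in any library, and the 5 genes with the nearest pattern. Exceptions, named after their values were seen, are Otx2 in shGldc over NTC cells, Twist1, Thy1, Tek, Jak2, Fgf5, Il6st, Jak1, Stat3, Eomes, and the endoderm markers outside the rule. Fibroblast markers, and the markers used to check the labels, were given as sums with some genes named and do not follow the rule. Fibroblast markers past 2-fold were left out, among them Col1a1 in shGldc over NTC cells and Dcn, Col1a2, Col3a1, and Postn in iPSCs over V6.5 cells. Alternatives were other pseudocounts, rescaling, centring, other filters, and NTC in place of untreated V6.5 cells. A planned search of protein sequences was not run. The software was matplotlib 3.10.9 for plots and scipy 1.17.1, pandas 2.3.3, and numpy 2.4.6 for the rest, under Python 3.11.15.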

Additional observations from a re-analysis of the deposited data

How the results depend on the processing

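No paired analysis was possible because each group had 1 library. Of the values for single factors under the alternatives, 345 of 379 stayed within 0.59 on the log2 scale, the robust SD of all genes in NTC over untreated V6.5 cells. A filter cannot change the value of a gene that it keeps, and centring and rescaling shift the genes of a comparison almost alike. The count therefore includes values that could hardly move and is no measure of stability. A pseudocount of 1 lowered the median of the 10 factors over MEFs to 3.78 in untreated V6.5 cells and 4.04 in iPSCs, and one of 0.01 raised it to 8.99 and 9.03. Centring on the median of all genes gave 6.24 and 5.42, and a filter at an FPKM of 5, which removes Nr5a2 in iPSCs, gave 6.04. Rescaling the libraries to 1 FPKM sum moved the median of all genes from 0.25 to 0.01 in untreated V6.5 cells and from 0.31 to 0.02 in iPSCs over MEFs, and no factor changed direction. With NTC in place of untreated V6.5 cells, an alternative added after seeing the data, the median of iPSCs over V6.5 cells became -0.45, with 0 factors at least 2-fold higher and 2 lower, and Klf4 passed 2-fold over MEFs. A pseudocount of 1 left 0 factors at least 2-fold lower in shGldc than in untreated V6.5 cells. Among all genes in shGldc over NTC cells, the counts of 1074 higher and 919 lower became 654 and 538 with a pseudocount of 1, 475 and 322 with a filter at 5, and 1996 and 1842 without a filter. For iPSCs over V6.5 cells, 1241 and 917 became 753 and 556, 634 and 502, and 2015 and 1461, and 2003 were higher over NTC. For NTC over V6.5 cells, 601 and 1235 became 342 and 713, 279 and 511, and 1104 and 2466. For shGldc over V6.5 cells, 1210 and 1696 became 684 and 807 at the filter of 5 and 1870 and 2969 without one, and 4104 higher in iPSCs over MEFs became 2694 at that filter. Why these counts moved was not tested beyond the number of genes kept. Depth limits the MEF values, where 6 factors rest on 12.1 fragments or fewer.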

Other observations

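The supplementary primers of the study hold 4 pairs named for these factors, and each pair matched the transcripts of 1 gene exactly. They show which part of Klf4 and Esrrb the study's qRT-PCR would read. The pair named Klf4 matched the longest Klf4 transcript at bases 708 to 892 of 3029, a product of 185 bases, and the pair named Esrrb matched the longest Esrrb transcript at bases 453 to 673 of 4300. Of the pairs named for endogenous Klf4, the first matched that Klf4 transcript at bases 2175 to 2318. The other, printed here with the forward primer first, matched Myc transcripts and no Klf4 transcript, at bases 1916 to 2047 of the longest.
Forward: gagctggaatctctcgtgagag
Reverse: atggctgaagcttacagtcccaa

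Of the primitive endoderm markers, Gata4 was at 3.52 in untreated V6.5 cells and 9.99 in iPSCs, Lama1 at 3.88 and 12.03, and Dab2 at 1.02 and 1.16. Gata6 (0.646 and 4.46) and Sox17 (0.571 and 2.57) passed the filter only through iPSCs, and Pdgfra (0.834 and 0.810), which was removed by it, was level. Of the 12 other naive genes, 3 were at least 2-fold higher in iPSCs, against 10.1% of all genes, namely Pecam1 (14.7 and 31.7), Tet2 (3.05 and 6.56), and Gbx2 (15.4 and 31.1). At least 2-fold lower were 5, against 7.44%, namely Dppa3 (60.6 and 14.4), Alpl (143 and 42.2), Tcl1 (53.3 and 19.5), Fbxo15 (110.1 and 51.9), and Gdf3 (44.8 and 21.8). Of the 16 FGF, ERK, and exit genes, 7 were higher, against 52.6% of all genes, and 9 lower, against 47.4%. Past 2-fold were 4, against the same 10.1%, namely Etv4 (51.1 and 232), Spry2 (35.7 and 139), Dusp6 (21.7 and 54.2), and Spry4 (11.03 and 27.2), all higher in iPSCs, and the lowest ratio was that of Fgfr1 (40.1 and 20.1). These values come from 1 library each and their relation was not tested.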
